A study of Homo sapiens with 4 samples.

Results

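The 3 colony-stimulating factor genes CSF1, CSF2 and CSF3 and the cytokine gene IL24 were followed in MDA-MB-231 cells, 4 of 20263 genes in the count table. Their identifiers there are ENSG00000184371 (CSF1), ENSG00000164400 (CSF2), ENSG00000108342 (CSF3) and ENSG00000162892 (IL24). They were chosen by symbol, with their large differences between RB-BC and DMSO already known, so those differences are given below as a description with no test. MDA-MB-231 is a human cell line from a breast cancer of the triple-negative class, defined by low hormone receptors and no amplified HER2. Cells in medium with 10% serum received the vehicle DMSO (2 libraries) or RB-BC (2 libraries), which the series title calls a ribociclib derivative (ribociclib inhibits the kinases CDK4 and CDK6), for 24 h. No dose was found in the labels, and the treatment protocol calls the compound Rib_CA. Nothing says that the libraries came from separate cultures, so p-values rest on a spread between libraries that may be technical.

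Colony-stimulating factors are secreted proteins that make blood cell precursors survive, divide and mature. CSF1 (M-CSF) acts on monocytes and macrophages through CSF1R, CSF2 (GM-CSF) on granulocytes, macrophages and dendritic cells through CSF2RA and CSF2RB, and CSF3 (G-CSF) on neutrophils through CSF3R. IL24, also called MDA-7, is a cytokine of the IL-10 family that signals through IL20RB paired with IL20RA or IL22RA1, and it is studied as an inducer of death in tumour cells. The messages of several such cytokines carry AU-rich elements, short repeats of ATTTA in the 3' untranslated region that recruit decay factors.

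Totals ran from 34774542 to 42786422 counts per library. The mitochondrial genome supplied 21.7% of the reads counted in DMSO 2 and between 8.68% and 10.3% in the other 3 libraries. The value 2 occurred 1810 times in the table against 399 times for the value 1, so single counts were not independent reads, and counting intervals below are too narrow. Of the line's own markers, vimentin (VIM) was at 3303 to 5465 CPM (counts scaled to a common library total) and EGFR at 865 to 1056 CPM, while the oestrogen receptor gene ESR1 was at 0.138 to 0.611 CPM and ERBB2, which encodes HER2, was at 56.3 to 71.5 CPM. Of 9 such markers 0 passed edgeR or limma-voom, VIM rose by DESeq2, and at an unadjusted p of 0.05 VIM was higher and the keratin genes KRT8 and KRT18 lower. Over all tested genes 18.2% were higher and 17.0% lower at an unadjusted p of 0.05 in edgeR, and 11.9% rose and 11.5% fell by DESeq2. Of 12 myeloid markers 4 had enough counts to be tested, of which 0 passed edgeR or limma-voom, 2 were higher at an unadjusted p of 0.05 (CD68 and PTPRC) and 1, CD68, rose by DESeq2. Their summed level was 150 and 334 CPM in DMSO and 473 and 505 CPM in RB-BC, nearly all of it from CD68, a lysosomal protein gene (log2 fold change 1.02 ± 0.36, edgeR adjusted p = 0.107). Without CD68 the sum was 2.34 and 1.82 CPM in DMSO and 2.28 and 2.90 CPM in RB-BC, and AIF1 and TYROBP had 0 counts in every library. Of 9 lymphoid markers 6 had 0 counts in every library. The lymphoid sum was 2.34 and 2.66 CPM in DMSO and 2.93 and 3.88 CPM in RB-BC. Nearly all of it came from CD8A (log2 fold change 0.42 ± 0.28, edgeR adjusted p = 0.328). The 5 endothelial markers summed to 7.57 and 6.80 CPM in DMSO and 10.7 and 13.8 CPM in RB-BC. Most of that came from KDR, at 6.21 and 5.94 CPM in DMSO and 8.53 and 11.5 CPM in RB-BC. Of the endothelial markers 3 were tested, 0 passed edgeR, DESeq2 or limma-voom, and 2 (KDR and PECAM1) were higher at an unadjusted p of 0.05. The part of these markers in the results was not tested.

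Levels are CPM scaled by TMM, a method that corrects library totals for a few very abundant genes. A log2 fold change is RB-BC over DMSO, from edgeR's quasi-likelihood fit to 13744 genes. Its standard error (SE) was derived from the test, as the size of the log2 fold change over the square root of the F statistic. In bulk RNA, more cells that make a transcript and more of it per cell cannot be told apart.

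CSF1 was the abundant member in both groups. It had 8892 and 10060 counts in DMSO 1 and DMSO 2 and 27261 and 25031 counts in RB-BC 1 and RB-BC 2. As levels these were 236 and 300.1 CPM in DMSO and 628 and 571 CPM in RB-BC. The lower RB-BC library was 1.90 times the higher DMSO library, for a gene chosen with its difference already known. How many of all tested genes separate the groups in this way was not counted. The mean went from 268 ± 45.2 to 599.7 ± 40.6 CPM (SD, n = 2), and the fitted log2 difference was 1.16 ± 0.18 (SE), or 2.24-fold. CSF1 ranked 749 of the 13744 tested genes by upward log2 fold change.

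CSF2 was scarce in DMSO and abundant in RB-BC. It had 36 and 72 counts in DMSO 1 and DMSO 2, against 3638 and 2376 counts in RB-BC 1 and RB-BC 2. These were 0.956 and 2.15 CPM in DMSO and 83.9 and 54.2 CPM in RB-BC. The groups were far apart, with the lower RB-BC library 25.2 times the higher DMSO library, although the libraries of each group differed from each other. The mean level went from 1.55 ± 0.84 to 69.0 ± 21.0 CPM (SD, n = 2), or on the fitted log2 scale by 5.48 ± 0.44 (SE), or 44.8-fold. Without DMSO 2 the log2 fold change was 6.17, more than 1.5 times larger on the linear scale, since DMSO 2 held the higher of the DMSO values.

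The 250 bases before the CSF2 transcript start are shown because CSF2 has been a model of inducible promoters, driven in other cells by NF-kB, AP-1 and related factors. The sequences of this kind are from RefSeq (GRCh38.p14, plus strand), printed 5' to 3', and capitals mark motif matches. CSF2 lies at chr5:132073539-132073788 for this window and IL24 at chr1:206897193-206897442; CSF1 and CSF3 have no entry in the table used.
CSF2 promoter: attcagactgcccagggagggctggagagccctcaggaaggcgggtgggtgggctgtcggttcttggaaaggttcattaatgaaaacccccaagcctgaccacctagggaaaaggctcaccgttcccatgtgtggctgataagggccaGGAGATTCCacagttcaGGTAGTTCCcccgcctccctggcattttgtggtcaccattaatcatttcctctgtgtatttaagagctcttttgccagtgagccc
IL24 promoter: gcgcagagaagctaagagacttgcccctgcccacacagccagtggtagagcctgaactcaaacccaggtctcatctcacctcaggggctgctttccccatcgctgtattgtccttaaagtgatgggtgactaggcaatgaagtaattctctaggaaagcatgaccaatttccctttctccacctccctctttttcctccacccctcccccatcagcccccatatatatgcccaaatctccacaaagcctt
The motifs searched on both strands were a kappaB-like motif of 9 bases, GGNNNTTCC, the same motif with 1 more inner base, the AP-1 motif TGANTCA and the C/EBP motif TTGCNNAA, where N is any base. The CSF2 window held 2 matches, both to the 9-base kappaB-like motif on the plus strand. The match GGAGATTCC spanned positions −102 to −94 and GGTAGTTCC spanned −85 to −77, counted back from the transcript start. The IL24 window held none of the 4 motifs. Such matches were found in many promoters. Of 35116 promoter windows of this length, 17.1% held the 9-base kappaB-like motif, 17.6% the 10-base form, 6.57% the AP-1 motif and 9.05% the C/EBP motif.

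IL24 was near the detection limit in DMSO. It had 11 and 19 counts in DMSO 1 and DMSO 2, and 996 and 563 counts in RB-BC 1 and RB-BC 2. The levels were 0.292 and 0.567 CPM in DMSO and 23.0 and 12.8 CPM in RB-BC. The lower RB-BC library was 22.7 times the higher DMSO library. The mean went from 0.43 ± 0.19 to 17.9 ± 7.15 CPM (SD, n = 2), or on the fitted log2 scale by 5.39 ± 0.46 (SE), or 41.8-fold. With a pseudocount of 0.5 CPM on both means, the log2 ratio was 4.31 for IL24 and 5.08 for CSF2, so the size of the IL24 fold depends on how its low DMSO values are treated. Among tested genes CSF2 ranked 22 and IL24 ranked 25 by upward log2 fold change.

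CSF3 had 0 counts in both DMSO libraries and 167 and 136 counts in RB-BC 1 and RB-BC 2. The RB-BC levels were 3.85 and 3.10 CPM. A count of 0 allows up to 3 counts, which is 0.0797 CPM in DMSO 1 and 0.0895 CPM in DMSO 2 and covers counting error only. Against that floor in each DMSO library, CSF3 was at least 41.1-fold higher in RB-BC. Because single counts were not independent, a count of 0 may allow more than this floor, and the bound would then be smaller. It was the only one of the 4 genes without a single count in DMSO.

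**Figure D1:**
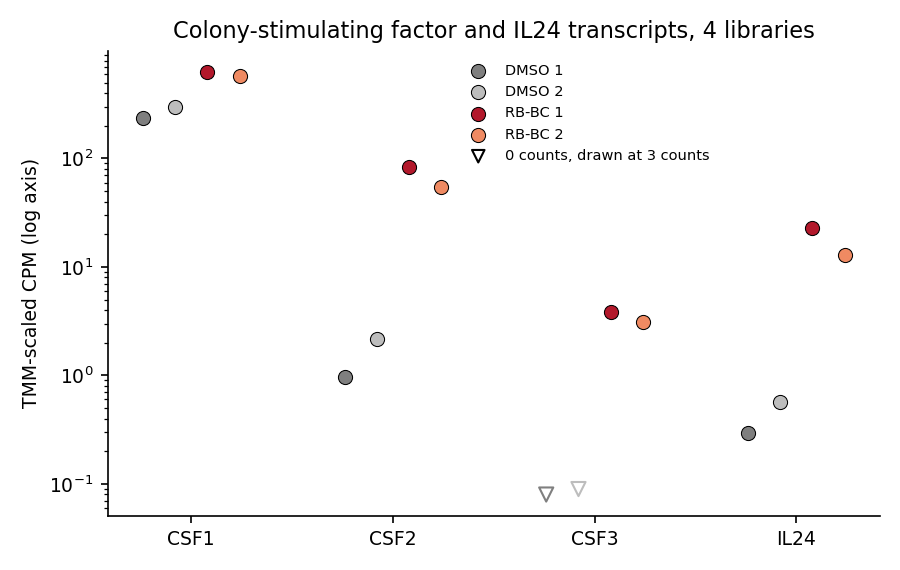
TMM-scaled CPM (log axis) of CSF1, CSF2, CSF3 and IL24 in each of the 4 libraries, 1 point per library; open triangles stand at 3 counts for the DMSO libraries in which CSF3 had 0 counts. The lower RB-BC point is 1.90 times the higher DMSO point for CSF1, 25.2 times for CSF2 and 22.7 times for IL24.

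Levels of different genes can be compared only per length, here as CPM per kb of annotated exon. That length joins the exons of every annotated transcript of a gene, 5.42 kb for CSF1 and 0.787 kb for CSF2. Orders, gains and shares per length depend on this choice, and no other length was tried. In DMSO the order was CSF1 at 49.5 ± 8.35, CSF2 at 1.97 ± 1.07, IL24 at 0.217 ± 0.098 CPM per kb (SD, n = 2), and CSF3, with a floor of 0.0381 CPM per kb. No neighbours in that order overlapped between libraries. In RB-BC CSF1 was at 110.7 ± 7.48 and CSF2 at 87.7 ± 26.6 CPM per kb (SD, n = 2), and here the neighbours did overlap, with CSF2 at 106.6 in RB-BC 1 and CSF1 at 105.4 in RB-BC 2. IL24 followed at 9.05 ± 3.61 and CSF3 at 1.57 ± 0.24 CPM per kb (SD, n = 2), apart from each other and from CSF2.

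Among the tested genes, the level of CSF2 per length was at or above that of 31.0% in DMSO and 97.4% in RB-BC. For CSF1 these shares were 94.9% and 98.1%, and for IL24 8.75% and 67.2%. CSF3 in RB-BC reached 27.4%, so it stayed in the lower part of the range. The fold change of CSF1 was the smallest. Its gain per length, 61.2 CPM per kb, was below the 85.7 of CSF2 and above the 8.83 of IL24 and the 1.57 of CSF3.

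The make-up of the 4 transcripts as a pool differed between the groups. CSF1 supplied 97.0% of their summed level per length in DMSO 1 and 94.8% in DMSO 2, but 49.2% in RB-BC 1 and 57.9% in the other RB-BC library. The share of CSF2 was 2.70% and 4.67% in DMSO and 45.2% and 37.8% in RB-BC. The sum itself was 44.9 and 58.4 CPM per kb in DMSO and 236 and 182 CPM per kb in RB-BC.

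**Figure D2:**
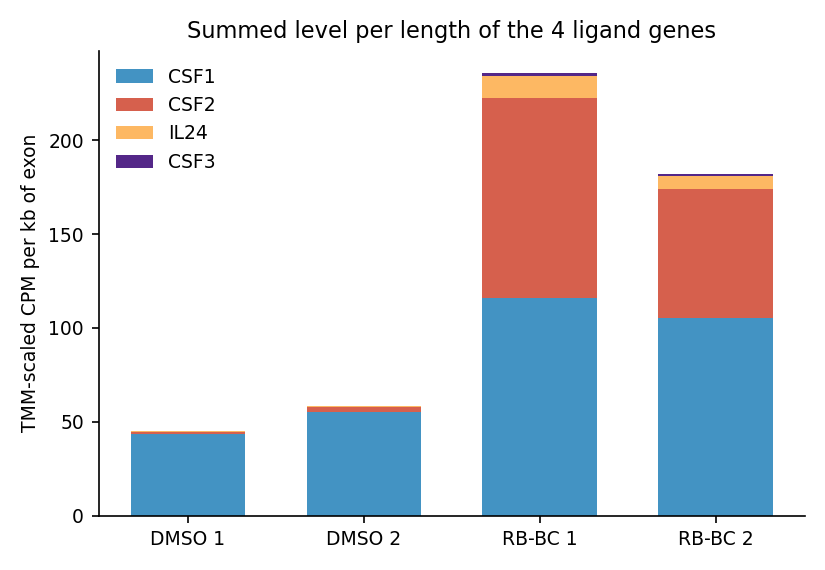
Summed TMM-scaled CPM per kb of exon of the 4 ligand genes in each library, stacked by gene on a linear axis from 0. CSF1 fills nearly the whole bar in both DMSO libraries, and CSF2 makes up 45.2% and 37.8% of the bar in RB-BC 1 and RB-BC 2.

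Ratios of counts within a library do not depend on how libraries are scaled. CSF2 had 0.405 counts per 100 CSF1 counts in DMSO 1 (exact 95% interval 0.283 to 0.561) and 0.716 in DMSO 2 (0.560 to 0.902), against 13.3 in RB-BC 1 (12.9 to 13.8) and 9.49 in RB-BC 2 (9.10 to 9.90). The ratio of IL24 to CSF2 behaved otherwise. It was 30.6 counts per 100 CSF2 counts in DMSO 1 (14.0 to 61.4) and 26.4 in DMSO 2 (15.0 to 44.2), and 27.4 in RB-BC 1 (25.5 to 29.4) and 23.7 in RB-BC 2 (21.6 to 26.0). All 4 values lay between 23.7 and 30.6, although CSF2 differed 44.8-fold and IL24 41.8-fold between the groups. The DMSO intervals are wide, so a moderate difference in this ratio was not detectable at this depth. CSF3 had 4.59 counts per 100 CSF2 counts in RB-BC 1 (3.91 to 5.36) and 5.72 in RB-BC 2 (4.78 to 6.81). In DMSO it had 0, with upper bounds of 10.8 and 5.26, and these overlap the RB-BC intervals, so a difference was not detectable at this depth.

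**Figure D3:**
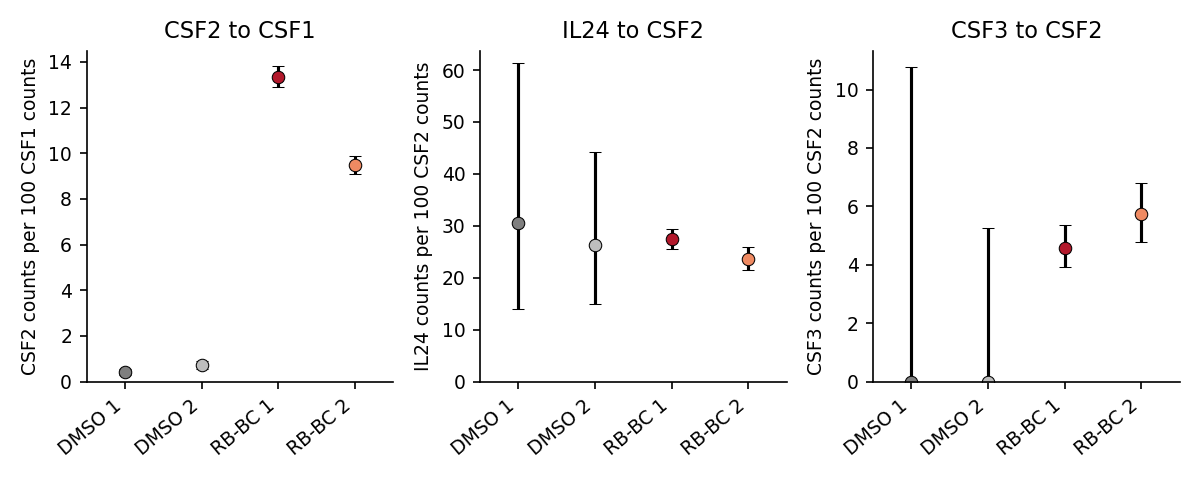
Counts of 1 ligand gene per 100 counts of another in each library, with exact 95% intervals for counting error; the panels give CSF2 to CSF1, IL24 to CSF2 and CSF3 to CSF2. The CSF2 to CSF1 ratio is under 1 in DMSO and 9.49 or more in RB-BC, whereas IL24 to CSF2 lies between 23.7 and 30.6 in the 4 libraries.

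Libraries of the same group also differed for these genes. RB-BC 1 exceeded RB-BC 2 by 1.55 times for CSF2, 1.79 times for IL24, 1.24 times for CSF3 and 1.10 times for CSF1 in CPM. On the log2(CPM + 0.5) scale the differences were 0.62, 0.81, 0.27 and 0.14, and the median size of this difference over all tested genes was 0.14. With the sign of RB-BC 1 over RB-BC 2 kept, the CSF2 value was at or above that of 97.6% of tested genes. The IL24 value was at or above that of 98.6%, and ranks by size alone were not computed. Between the DMSO libraries, DMSO 2 was higher for CSF2 (2.25 times), IL24 (1.94 times) and CSF1 (1.27 times). DMSO 2 is the library with the large mitochondrial share, whose part in these differences was not tested.

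AU-rich repeats differed widely among the 4 messages. Counts refer to the 3' untranslated region of 1 principal transcript per gene in GENCODE 29 (GRCh38). The windows below are the 30 bases of each region with the most ATTTA repeats, shown as DNA because this element is the classical decay signal of CSF2 and CSF3 messages; capitals mark ATTTA.
CSF1 window: tttatataaagtcATTTAaatatctATTTA
CSF2 window: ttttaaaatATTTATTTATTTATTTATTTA
CSF3 window: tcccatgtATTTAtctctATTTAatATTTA
IL24 window: agattcttgtATTTAttacaactctATTTA
CSF2 had 8 ATTTA repeats in 318 bases, of which 5 overlap in the window shown, and 3 copies of the longer element TTATTTATT. Its density of 25.2 repeats per 1000 bases was reached by 0.00840% of the 11900 tested genes with a region of at least 200 bases. CSF3 had 7 repeats in 854 bases, a density of 8.20 that 1.40% of those genes reached. IL24 had 3 repeats in 806 bases and CSF1 had 4 in 2154 bases, densities of 3.72 and 1.86 that 18.7% and 49.2% of genes reached. CSF2 and IL24 thus had the highest and the third highest density of the 4.

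Across all tested genes outside the 4, 8.64% of the 13512 with an annotated 3' region rose in RB-BC and 7.60% fell. Of 1129 genes with at least 1 TTATTTATT element, 113 rose (10.0%) and 76 fell (6.73%), at a median log2 fold change of −0.06. Of 12383 genes without it 1054 rose (8.51%) and 951 fell (7.68%), at a median of 0.0036. Of 260 genes with 2 or more copies, 34 rose (13.1%) and 14 fell (5.38%). Genes with the element had longer 3' regions, a median of 2879 bases against 958. Among genes with a 3' region of at most the median length, 1063 bases, 30 of 171 with the element rose (17.5%) and 9 fell (5.26%). Without it 661 of 6587 rose (10.0%) and 450 fell (6.83%). The median log2 fold changes were 0.12 with the element and 0.062 without it. Among genes with longer 3' regions, which held most genes with the element, 83 of 958 with it rose (8.66%) and 67 fell (6.99%). Without it 393 of 5796 rose (6.78%) and 501 fell (8.64%). Here the medians were −0.083 with the element and −0.058 without it. Of 87 genes with 3 or more copies, 10 rose (11.5%) and 1 fell (1.15%). These are counts beside their background and no test was made of them. Fewer of the 1129 genes rose with either RB-BC library dropped and more with either DMSO library dropped, as was the case over all genes.

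No receptor gene for these ligands passed the test. Over all tested genes 16.1% passed edgeR's quasi-likelihood test at an adjusted p of 0.05 (Benjamini-Hochberg), 8.58% higher and 7.53% lower in RB-BC. At an unadjusted p of 0.05, 35.1% passed (18.2% higher and 17.0% lower). By DESeq2 23.4% passed (11.9% and 11.5%), and by limma-voom 16.6% passed (8.92% and 7.68%). Of 7 receptor genes 5 were tested and 0 passed edgeR, 0 passed DESeq2 and 0 passed limma-voom. At an unadjusted p of 0.05, 1 was higher and 1 lower. CSF2RB, the shared beta chain that GM-CSF needs to signal, and CSF3R, the G-CSF receptor, had 0 counts in all 4 libraries, which allows up to 0.0895 CPM in DMSO 2, the library with the smallest TMM-scaled size. CSF2RA, the ligand-binding chain for GM-CSF, was at 13.0 ± 0.38 CPM in DMSO and 14.3 ± 2.20 CPM in RB-BC (SD, n = 2), a log2 difference of 0.13 ± 0.18 (edgeR adjusted p = 0.644). CSF1R had 34 and 18 counts in DMSO and 14 and 26 counts in RB-BC, at −0.65 ± 0.52 (edgeR adjusted p = 0.408).

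Both chains of each IL-24 receptor were present at a low level. IL20RB, the shared chain, had 78 and 64 counts in DMSO and 70 and 66 counts in RB-BC, at −0.35 ± 0.29 (edgeR adjusted p = 0.417). IL20RA had 34 and 39 counts in DMSO and 14 and 26 counts in RB-BC, at −1.17 ± 0.47 (edgeR adjusted p = 0.136). IL22RA1 had 40 and 34 counts in DMSO and 70 and 86 counts in RB-BC, at 0.78 ± 0.32 (edgeR adjusted p = 0.141). The partner chains IL20RA and IL22RA1 thus had opposite signs, neither past the threshold.

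Related ligands were mostly silent. Of 14 genes for cytokines of the same families or for other blood cell growth factors, 4 were tested, 0 rose by edgeR, DESeq2 or limma-voom (1 at an unadjusted p of 0.05) and 1 fell. IL34, the other ligand of CSF1R, had 0 counts in 3 libraries and 2 in RB-BC 2. IL3 and IL5, which share the beta chain with GM-CSF, were as scarce, with 0 counts of IL3 and 1 count of IL5 over the 4 libraries. In the IL-10 family, IL10, IL22 and IL26 had 0 counts, IL19 had 2 counts in RB-BC 1, and IL20, whose gene lies beside IL24, had 0 counts in DMSO and 6 and 11 counts in RB-BC. EPO, which encodes erythropoietin, had 6 counts in each DMSO library and 0 in RB-BC, and THPO had 0 counts throughout.

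KITLG, the ligand of the receptor KIT on blood precursors, was the member that fell. It had 207 and 160 counts in DMSO and 61 and 59 counts in RB-BC, a log2 fold change of −1.90 ± 0.25 (edgeR adjusted p = 0.0114). KITLG no longer passed with either RB-BC library left out. In those fits far fewer of all genes passed, so this loss was not particular to KITLG. FLT3LG, a growth factor for dendritic cell precursors, went from 4.75 ± 0.63 to 6.98 ± 0.36 CPM (SD, n = 2; edgeR adjusted p = 0.128). IL7 (−0.17 ± 0.39, edgeR adjusted p = 0.783) and IL15 (−0.24 ± 0.26, edgeR adjusted p = 0.547), growth factors of lymphocytes, did not pass. IL7 was at 0.36 without DMSO 1.

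Of 18 genes that carry the signal inside the cell, 16 were tested, 1 rose and 0 fell by edgeR, at a median log2 fold change of 0.26 against −0.0016 over all tested genes. At an unadjusted p of 0.05, 4 were higher and 1 lower, and DESeq2 called 2 higher (GAB2 and STAT5A) and 0 lower. GAB2, a docking protein downstream of the beta chain, was the 1 that rose, from 53.4 ± 4.04 to 131 ± 6.85 CPM (SD, n = 2), at 1.30 ± 0.14 (edgeR adjusted p = 0.00881). With RB-BC 1 left out the log2 fold change of GAB2 was 1.25 and it no longer passed, in a fit where far fewer of all genes passed. The phosphatase PTPN11 (−0.54 ± 0.20, edgeR adjusted p = 0.112) and the adaptor SHC1 (0.30 ± 0.15, edgeR adjusted p = 0.213) had the highest CPM of those that did not pass, and PTPN11 passed without DMSO 2 (edgeR adjusted p = 0.0161), as 1 fall. JAK3 stood apart with 4 and 0 counts in DMSO and 14 and 35 counts in RB-BC (edgeR adjusted p = 0.0816).

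Of 18 brakes on cytokine receptor signalling, 0 rose and 1 fell by edgeR, against 3 higher and 4 lower at an unadjusted p of 0.05 and 2 higher (CBL and CBLB) and 4 lower (SOCS3, SOCS4, PIAS3 and PTPN1) by DESeq2. The median log2 fold change was −0.08. SOCS3, which blocks receptors of the IL-6 and G-CSF type, went from 59.6 ± 4.78 to 24.0 ± 2.15 CPM (SD, n = 2), at −1.31 ± 0.15 (edgeR adjusted p = 0.00942). With RB-BC 1 or RB-BC 2 left out SOCS3 no longer passed, in fits where far fewer of all genes passed. With either DMSO library left out, 1 rose and 2 fell. SH2B3 (0.24 ± 0.17, edgeR adjusted p = 0.350) and the phosphatase gene PTPN1 (−0.56 ± 0.19, edgeR adjusted p = 0.0924) had the highest CPM of the others. PTPN1 passed with DESeq2 (adjusted p = 0.0406) and, in edgeR, with DMSO 1 left out (adjusted p = 0.0211).

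Among 22 factors that destroy or protect AU-rich and stem-loop messages, 2 rose and 2 fell by edgeR, at a median log2 fold change of −0.16. At an unadjusted p of 0.05, 5 were higher and 6 lower, and DESeq2 called 3 higher and 4 lower. DESeq2 added ZFP36 (higher), which encodes the decay factor tristetraprolin, and KHSRP and TIA1 (lower), which encode AU-rich element binding proteins. ZC3H12A, the endonuclease Regnase-1 that cuts inflammatory messages, had 206 and 364 counts in DMSO and 4384 and 3537 counts in RB-BC, at 3.48 ± 0.35 (edgeR adjusted p = 0.00762). Its relative ZC3H12C went from 48.0 ± 4.24 to 171 ± 17.2 CPM (SD, n = 2), at 1.83 ± 0.16 (edgeR adjusted p = 0.00636). The genes that fell were HNRNPD, which encodes the AU-rich element binding protein AUF1 (−0.71 ± 0.16, edgeR adjusted p = 0.0380), and NCL, which encodes nucleolin (−0.65 ± 0.16, edgeR adjusted p = 0.0423). The falls were less secure than the rises. HNRNPD and NCL were lost with library totals alone as the scaling (edgeR adjusted p = 0.0569 and 0.0713), where 0 fell. NCL was lost with the replicate number as a block (edgeR adjusted p = 0.0523). Both were also lost without either RB-BC library, in fits where far fewer of all genes passed. Without DMSO 2, 5 rose and 4 fell, and without DMSO 1, 3 fell. YBX1 (−0.16 ± 0.20, edgeR adjusted p = 0.588) and CNOT1 (−0.27 ± 0.15, edgeR adjusted p = 0.251) had the highest CPM among those that did not pass. The log2 fold change of YBX1 was 0.069 without DMSO 2. Per kb of exon KHSRP, at 80.7 in DMSO and 54.3 CPM per kb in RB-BC (log2 fold change −0.57 ± 0.17, edgeR adjusted p = 0.0708), was above CNOT1.

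Transcription factors known from other systems to act on colony-stimulating factor genes formed a further list. Of 24 genes 6 rose and 0 fell by edgeR (10 higher and 1 lower at an unadjusted p of 0.05, 7 and 1 by DESeq2, which added NFKB1 and the fall of NFATC3), at a median of 0.38. The C/EBP genes CEBPB and CEBPD, which encode activators of cytokine and acute-phase genes, rose by 2.77 ± 0.17 (edgeR adjusted p = 0.00378) and 2.87 ± 0.27 (edgeR adjusted p = 0.00685). CEBPD had 257 and 227 counts in DMSO and 2693 and 1653 counts in RB-BC. The NF-kB subunit genes NFKB2 and RELB rose by 1.67 ± 0.16 (edgeR adjusted p = 0.00696) and 2.46 ± 0.27 (edgeR adjusted p = 0.00881). JUNB and JUND, parts of AP-1, rose by 1.86 ± 0.29 (edgeR adjusted p = 0.0160) and 1.13 ± 0.19 (edgeR adjusted p = 0.0176). Neither JUNB nor JUND passed with RB-BC 1 left out, in a fit where far fewer of all genes passed.

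The log2 fold changes of the AP-1 genes FOSL1 and FOSL2 depended on which DMSO library was kept. FOSL1, the gene of the list with the highest CPM, had 21040 and 43208 counts in DMSO and 43669 and 51197 counts in RB-BC, at 0.23 ± 0.38 (edgeR adjusted p = 0.691). It was at −0.24 without DMSO 1 and at 0.96 without DMSO 2 (edgeR adjusted p = 0.0141). FOSL2 had 5628 and 1961 counts in DMSO and 2968 and 3030 counts in RB-BC (edgeR adjusted p = 0.337), at 0.23 without DMSO 1 and at −1.12 without DMSO 2 (edgeR adjusted p = 0.00786). JUN (0.42 ± 0.15, edgeR adjusted p = 0.103) had the next highest CPM among those that did not pass. Over the list 13 rose and 1 fell without DMSO 2, 6 rose and 2 fell without DMSO 1, and 4 rose without RB-BC 1.

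Of 12 genes linked to IL-24 in studies of tumour cells, 11 were tested, 4 rose and 0 fell by edgeR, at a median of 0.45. By DESeq2 5 rose and 0 fell, and at an unadjusted p of 0.05 6 were higher and 0 lower. DDIT3, a stress-induced transcription factor gene also called GADD153, had 368 and 283 counts in DMSO and 1303 and 2166 counts in RB-BC, at 2.12 ± 0.27 (edgeR adjusted p = 0.0111). PPP1R15A, the eIF2 phosphatase subunit GADD34, rose by 1.20 ± 0.24 (edgeR adjusted p = 0.0275), GADD45A by 0.84 ± 0.15 (edgeR adjusted p = 0.0209) and the survival gene MCL1 by 0.80 ± 0.15 (edgeR adjusted p = 0.0218). DDIT3 was higher in RB-BC 2 than in RB-BC 1, the opposite of IL24. With RB-BC 1 or RB-BC 2 left out, DDIT3 still passed and PPP1R15A, GADD45A and MCL1 did not, in fits where far fewer of all genes passed. The chaperone gene HSPA5 (0.50 ± 0.16, edgeR adjusted p = 0.0768) passed with DESeq2 (adjusted p = 0.00832) and, in edgeR, with either DMSO library left out (adjusted p = 0.0293 and 0.0420). BCL2L1, a survival gene, was at −0.18 ± 0.21 (edgeR adjusted p = 0.587) and at 0.11 without DMSO 2.

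**Figure D4:**
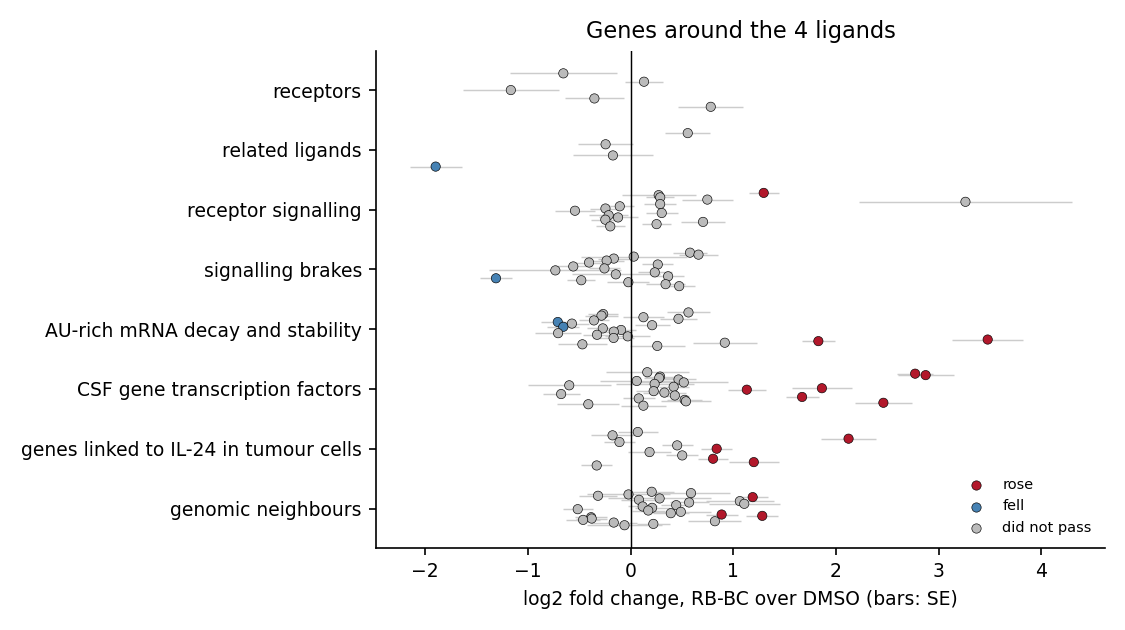
Log2 fold change of RB-BC over DMSO with its SE for each tested gene of the lists around the 4 ligands, coloured by whether it rose, fell or did not pass edgeR's test at an adjusted p of 0.05. Receptors and signalling brakes have 0 rises, and the transcription factors have 6 rises and 0 falls.

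Genes next to the 4 on the chromosome were also examined. The 5 nearest protein-coding genes on each side in RefSeq gave 40 neighbours, of which 26 were tested, 3 rose and 0 fell by edgeR; at an unadjusted p of 0.05, 8 were higher and 4 lower, and by DESeq2 4 and 1. Downstream of CSF2, P4HA2, a collagen prolyl hydroxylase subunit, was at 0.89 ± 0.16 (edgeR adjusted p = 0.0199) and PDLIM4 at 1.28 ± 0.16 (edgeR adjusted p = 0.0103), while IL3, next to CSF2 on the other side, had 0 counts. IL20, next to IL24, was too scarce to test. Near IL24, the kinase gene DYRK3 was at 1.19 ± 0.15 (edgeR adjusted p = 0.0111) and MAPKAPK2, whose kinase product stabilises AU-rich messages, at 0.21 ± 0.17 (edgeR adjusted p = 0.414). Of 8 tested neighbours of CSF3, 0 passed edgeR or limma-voom and 1 fell by DESeq2, with log2 fold changes from −0.51 to 1.06. The adjacent gene PSMD3, a proteasome subunit, was at −0.38 ± 0.15 (edgeR adjusted p = 0.129) and MED24, on the other side and the 1 called by DESeq2, at −0.51 ± 0.15 (edgeR adjusted p = 0.0627). CASC3, next to PSMD3 in CPM, was at −0.32 ± 0.19 (edgeR adjusted p = 0.276). Of 6 tested neighbours of CSF1, 0 passed edgeR or limma-voom and 1 rose by DESeq2, with values from 0.21 to 1.11. The highest in CPM was AHCYL1 at 0.21 ± 0.22 (edgeR adjusted p = 0.538). The 1 called by DESeq2 was GSTM2 (1.11 ± 0.34, edgeR adjusted p = 0.0779). At an unadjusted p of 0.05 in edgeR, GSTM1, GSTM2 and GSTM3 were higher. These neighbouring genes are related in sequence, and whether reads were shared among them was not tested. Dropping RB-BC 1 left 0 of the 40 neighbours as risen and dropping RB-BC 2 left 1, while dropping DMSO 1 gave 4 rises with 3 falls and dropping DMSO 2 gave 7 rises with 1 fall.

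**Figure D5:**
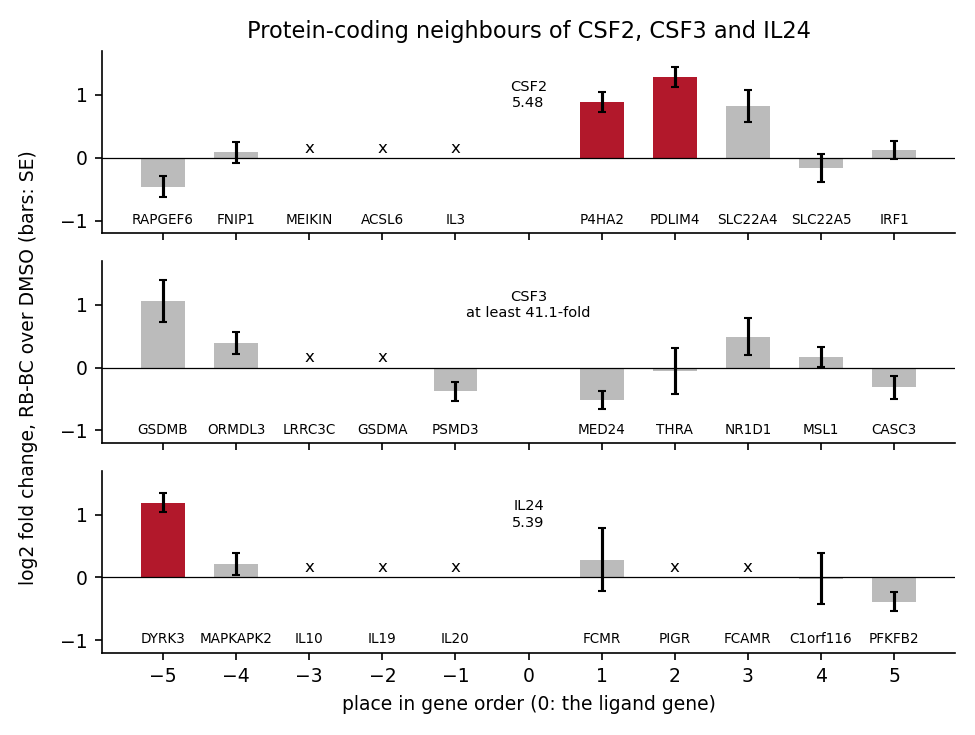
Log2 fold change of RB-BC over DMSO (bars) with its SE for the 5 protein-coding genes on each side of CSF2, CSF3 and IL24, in gene order; red bars rose, grey bars did not pass, and a cross marks a gene that was not tested. The ligand's own value is printed at place 0, and the tested neighbours range from −0.51 to 1.28.

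Genes with patterns most like those of the 4 were sought by the Euclidean distance between log2(CPM + 0.5) profiles over the 4 libraries, each centred on its mean, among 12123 genes. For CSF2 they were PTGS2, the inducible cyclooxygenase gene (distance 0.342), and the cytokine genes CXCL8 (0.350) and IL6 (0.564). PTGS2 had 190 and 355 counts in DMSO and 13739 and 7240 counts in RB-BC, so that, like CSF2, it was higher in DMSO 2 than in DMSO 1 and higher in RB-BC 1 than in RB-BC 2. For IL24 they were C15orf48 (0.295), GDF15 (0.509) and the complement gene C3 (0.594), and for CSF1 they were SLC3A2, an amino acid transporter subunit gene (0.0561), MACROD1 (0.0722) and FCGR2C (0.0727), the last of which shares sequence with close paralogs. For CSF3, with 0 counts in DMSO, the added 0.5 CPM sets the profile, so no nearest genes are named. Among the other 3 genes, CSF2 and IL24 were the closest pair at 0.910, and CSF1 and CSF2 the farthest at 3.98. The low DMSO levels of IL24 also make its distances depend on the added 0.5 CPM. The distances rest on 4 libraries, and a ranking by Pearson correlation shared 0 of the 20 nearest genes with them.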

How the data were processed

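RNA from 4 libraries of MDA-MB-231 cells was sequenced after an mRNA library preparation from 1.4 µg of total RNA, per the labels' protocols. The authors deposited raw whole-number counts per Ensembl gene, with no normalization that the values show; the labels name no aligner, counting program, strand setting or annotation. GRCm38 and mm10, both mouse, are the builds in the submitters' processing notes, although the 20263 identifiers are human. Symbols were matched by identifier for 20148 genes in the supplied name list and for 76 more in GENCODE 29. Exon lengths and 3' regions are from GENCODE 29.

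The filterByExpr rule (minimum count 10, minimum total 15) retained 13744 genes, which were scaled by TMM and tested with the quasi-likelihood test of edgeR 4.0.16 in R 4.3.3, two-sided, Benjamini-Hochberg adjusted over all of them, with a threshold of 0.05. The fit was tested on simulated data. An exact permutation test of 2 against 2 libraries cannot go below p = 0.333, so none is given. Within each group the 2 libraries differed beyond the sampling noise of independent counts (chi-square over its degrees of freedom 246 for DMSO and 38.8 for RB-BC). These values use library totals without TMM and include the mitochondrially encoded genes. Counts that are not independent also raise them, and these parts were not separated. Intervals of count ratios are exact binomial (95%) and cover counting error only.

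The members, the gene lists and the tests were chosen with earlier results of these data known. Named genes are the 4 members, every receptor and related ligand, in each other list up to 4 genes past the threshold and the 2 most abundant that did not pass, the neighbours that passed or, beside a member with none, the 2 most abundant, and the 3 nearest patterns per member (none for CSF3), with markers of other cell types; 1 gene that this rule names is not reported here. JAK3, FOSL2, JUNB, JUND, STAT5A, ZFP36, KHSRP, TIA1, the line markers, CBL, CBLB, SOCS4, PIAS3, NFKB1, NFATC3, MAPKAPK2, MED24, GSTM1, GSTM2, GSTM3 and the counts of AU-rich elements were added after their values were seen. Alternatives were RLE size factors, scaling by library totals, testing unfiltered genes or only those averaging 50 counts or more, DESeq2 1.42.0, limma-voom (limma 3.58.1), the replicate number as a block, removal of mitochondrially encoded genes, and leaving out each library.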

Additional observations from a re-analysis of the deposited data

How the results depend on the processing

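The log2 fold changes of CSF1, CSF2 and IL24 and the bound of CSF3 kept their direction in every alternative run for them. With each library left out in turn they ranged from 1.00 to 1.34 for CSF1, from 5.01 to 6.17 for CSF2, from 4.91 to 5.92 for IL24 and, as the log2 of a lower bound, from 5.20 to 5.51 for CSF3. As a ratio of means with a pseudocount of 0.5 CPM, a choice that pulls low genes toward no change, IL24 was at 4.31; this was not run for CSF3. Over all genes, 1179 rose and 1035 fell; 790 rose and 415 fell with library totals alone, 1639 and 1583 with DESeq2, and 149 to 1888 rose and 56 to 1760 fell with 1 library left out. In the fits that leave out a library, the lone library is assumed to vary like the pair of the other group. Over all genes, far fewer passed with either RB-BC library left out, and more passed with either DMSO library left out.

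With 1 library left out, the related ligands had 0 to 1 falls, receptor signalling 0 to 2 rises and 0 to 1 falls, signalling brakes 0 to 1 rises and 0 to 2 falls, AU-rich decay factors 2 to 5 rises and 0 to 4 falls, transcription factors 4 to 13 rises and 0 to 2 falls, genes linked to IL-24 1 to 6 rises, neighbours 0 to 7 rises and 0 to 3 falls, and genes with an AU-rich nonamer 21 to 173 rises. With DESeq2 receptor signalling had 2 rises, the brakes 2 rises and 4 falls, the decay factors 4 falls, the transcription factors 1 fall and the neighbours 1 fall. With library totals alone the decay factors had 0 falls. Over tested genes, the deviations of DMSO 1 and RB-BC 1 from their group means had a correlation of −0.034. With 2 libraries per group this cannot tell whether libraries of the same number were handled as pairs. With the replicate block the decay factors had 1 fall and the transcription factors 1 fall, and 1 of the 20 named genes that passed, NCL, was lost; the log2 fold changes of CSF1 and IL24 were 1.17 and 5.34. Leaving out RB-BC 1 lost 13 of those 20, leaving out RB-BC 2 lost 9, and leaving out either DMSO library lost 0. Genes that did not pass and changed sign with 1 library left out were BCL2L1 (−0.41 to 0.11), CSF2RA (−0.031 to 0.28), FOSL1 (−0.24 to 0.96), FOSL2 (−1.12 to 0.23), IL7 (−0.55 to 0.36) and YBX1 (−0.37 to 0.069). With Pearson correlation 0 of the 20 nearest patterns were shared. With the longest 3' region of each gene, an alternative chosen after seeing the data, 118 of 1240 genes with the nonamer rose (9.52%). The causes of these shifts were not tested. Depth limits CSF2, CSF3, IL24 and the receptors, with under 100 counts per DMSO library except for CSF2RA.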
